A study of Mus musculus with 12 samples.

Results

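The synaptic vesicle and release machinery was followed here through 30 genes of 35583 named genes in the tables, chosen by name for their known part in the storage, docking and calcium-triggered fusion of vesicles. The genes were divided, from background knowledge, into 15 that neurons in general use and 15 paralogs known from some neurons, and the estimated counts of all transcripts of a gene were summed. Poly(A) RNA had been sequenced from dorsal root ganglia, which hold the cell bodies of sensory neurons, of mice at 24 weeks of age. Wild-type (WT) mice gave 3 male and 3 female libraries, and YAC Q84 mice gave 1 male and 5 female libraries. Q84 mice carry, on a yeast artificial chromosome, the human ATXN3 gene with the expanded CAG repeat of spinocerebellar ataxia type 3, beside their own Atxn3 gene. Zygosity and the parent strain are not given in the sources used here, and a single Q84 male stands for that sex. Whether the libraries stand for separate animals is not stated in the labels, so the p-values below reflect spread between libraries, which may be technical.

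Neurotransmitter vesicles fuse when VAMP on the vesicle pairs with syntaxin and SNAP-25 on the plasma membrane to form a SNARE complex. Synaptotagmins sense the calcium that triggers fusion, complexins hold the SNARE complex ready, RIM and Munc13 proteins dock and prime vesicles at the active zone, Rab3 GTPases and synapsins manage the vesicle supply, and NSF with its SNAP adaptors takes the spent complex apart. Sensory neurons make these transcripts in the ganglion and use the proteins mainly at central terminals in the spinal cord, and peptide-containing neurons release from peripheral endings as well.

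In 2 libraries a 1000-base Atxn3 transcript, whose level separated the other libraries by genotype, went against the label. It was at 33.972 TPM (a level scaled to transcript length and library total) in the library labelled WT female 2, against 0 to 0.285 TPM in the other WT libraries. It was at 0.061 TPM in the library labelled Q84 female 5, against 62.741 to 79.408 TPM in the other Q84 libraries. Each comparison of Q84 with WT is therefore given for the 12 libraries as labelled and for the 10 others, 5 WT and 5 Q84, and no library was moved to another group. Total estimated counts were 66490481 to 86891563 per library. General neuron markers, 15 genes such as Tubb3 and Uchl1, summed to 7773 to 11341 TPM per library, while 8 markers of spinal cord cells summed to 5.4 to 11.6 TPM. Of these, Chat, Gad2, Slc32a1 and Slc6a5 were under 1 TPM in all 12 libraries. In the 10 libraries Gad1 rose in Q84 (1.39 ± 0.149 to 2.42 ± 0.364 CPM, edgeR adjusted p = 0.0273) and Aqp4 fell (28.1 ± 4.17 to 16.4 ± 2.66 CPM, adjusted p = 0.00762; ± SD over 5 libraries).

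Sv2b gave the clearest difference between the genotypes, and its transcripts start at 3 separate first exons, so the sequences around these starts are shown first. SV2B is a glycoprotein of the vesicle membrane, related in structure to transporters. The windows come from RefSeq (GRCm38.p6), lie on the minus strand of chromosome 7 and run 5′ to 3′; lower case marks the 250 bases before the start and capitals the first 30 bases of the first exon. The window of transcript Sv2b-201 is chr7:75308357-75308636, that of Sv2b-202 is chr7:75309233-75309512 and that of Sv2b-204 is chr7:75219990-75220269. The RefSeq start used for Sv2b-201 lies 7 bases from the GENCODE M21 start of that transcript.
Sv2b-201: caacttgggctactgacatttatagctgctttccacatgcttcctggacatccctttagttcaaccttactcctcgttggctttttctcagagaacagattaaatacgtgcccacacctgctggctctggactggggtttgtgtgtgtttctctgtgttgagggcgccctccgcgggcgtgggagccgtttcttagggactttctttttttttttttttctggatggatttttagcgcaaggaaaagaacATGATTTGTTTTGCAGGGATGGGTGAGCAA
Sv2b-202: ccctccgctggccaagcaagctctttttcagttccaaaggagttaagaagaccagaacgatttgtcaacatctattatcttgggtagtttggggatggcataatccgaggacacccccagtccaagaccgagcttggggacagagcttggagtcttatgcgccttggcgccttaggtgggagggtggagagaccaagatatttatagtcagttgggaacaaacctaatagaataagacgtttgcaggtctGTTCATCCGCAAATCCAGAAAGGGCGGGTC
Sv2b-204: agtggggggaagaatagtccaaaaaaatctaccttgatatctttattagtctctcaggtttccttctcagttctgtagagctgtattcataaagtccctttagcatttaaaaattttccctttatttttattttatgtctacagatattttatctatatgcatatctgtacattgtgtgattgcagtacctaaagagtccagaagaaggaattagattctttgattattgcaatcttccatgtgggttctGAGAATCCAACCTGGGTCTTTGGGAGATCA
The Sv2b-204 start lies inside the gene, downstream of the other starts, and the 3 transcripts share the same coding exons (2049 coding bases in GENCODE M21), so they differ in their untranslated first exons and in length. The GC box, the TATA box and the cyclic AMP element were searched on both strands of the RefSeq windows from 250 bases before to 50 bases after each start; none of the 3 contains another. The GC box GGGCGG was present in 35.7% of all 32851 windows and in 21 of 32 windows of members, which covered 18 of the 23 members that have a window. The TATA box TATAAA was present in 13.6% of all windows and in 3 member windows, of Rab3b and Sv2b. Among the windows printed above, that of Sv2b-202 holds both motifs, the GC box in its capitals and TATAAA on the opposite strand 50 bases before the start. The Sv2b-201 window holds TATAAA on the opposite strand 232 bases before the start, and the Sv2b-204 window holds neither. The cyclic AMP element TGACGTCA was found in the Syn1 window alone among members, against 1.79% of all windows.

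All 30 members were expressed in the ganglia, and their mean levels over the 12 libraries ranged from 0.898 to 1408 TPM. Snap25, a SNARE of the plasma membrane, was the highest at 1408 ± 142 TPM (SD, n = 12). Vamp1, the vesicle SNARE typical of motor and sensory neurons, followed at 429 ± 64.1 TPM, far above its paralog Vamp2 at 75.3 ± 9.95 TPM (both SD, n = 12). Vamp1 RNA thus exceeded Vamp2 RNA in every library, with a Vamp1 to Vamp2 ratio in TPM of 3 in Q84 female 5 and of 5.02 to 8.01 in the other 11 libraries. Levels of other vesicle SNAREs were not compared with these. Next came Syt4 at 312 ± 31.5 TPM, Rab3a at 286 ± 61.0, Napb at 263 ± 17.6, Syt11 at 250 ± 53.4 and Cplx1 at 231 ± 56.2 TPM (each SD, n = 12). Syt4 and Syt11 encode synaptotagmins that bind calcium poorly, and Napb encodes the NSF adaptor beta-SNAP. These means have overlapping ranges over libraries, so the order from Syt4 to Cplx1 is not resolved.

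**Figure D1:**
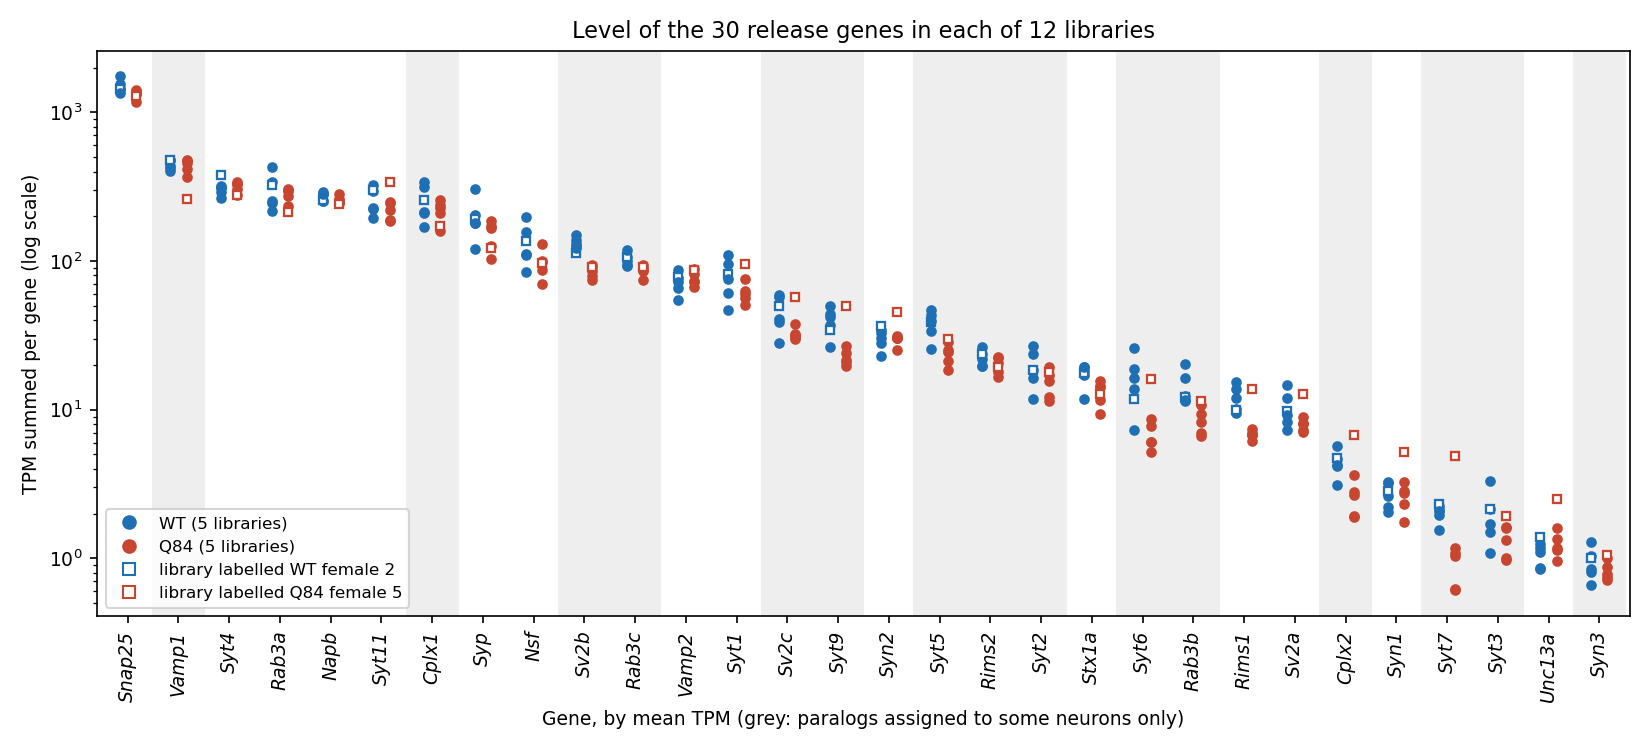
Each gene on the x axis is ordered by its mean level, and the y axis gives TPM summed over its transcripts on a log scale, with 1 point per library (filled: 5 WT and 5 Q84 libraries; open squares: WT female 2 and Q84 female 5 as labelled). The levels run from 1408 TPM for Snap25 to 0.898 TPM for Syn3, and the square of Q84 female 5 stands above the other Q84 points for Syt7 and Syt9 and below them for Vamp1.

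Among synaptotagmins that act as calcium sensors, Syt1 had 72.8 ± 19.9 TPM, Syt9 33.0 ± 11.3, Syt5 31.3 ± 9.09 and Syt2 17.4 ± 4.58 TPM (SD, n = 12). Syt6 (12 TPM), Syt7 (1.81 TPM) and Syt3 (1.70 TPM) were lower. For vesicle glycoproteins the order was Sv2b (108 ± 25.1 TPM), Sv2c (41.1 ± 11.6) and Sv2a (9.45 ± 2.40), each SD with n = 12. The ranges of these 3 paralogs did not overlap, with Sv2b at 74.1 to 149, Sv2c at 28.0 to 58.8 and Sv2a at 7.09 to 14.6 TPM. The ganglia therefore held far less RNA of Sv2a, the paralog that neurons in general use and the target of the drug levetiracetam, than of the other two. Synapsin RNA was mostly Syn2, at 31.5 ± 5.76 TPM against 2.85 ± 0.875 for Syn1 and 0.898 ± 0.176 for Syn3 (SD, n = 12). However, Syn2-206, a transcript annotated without a coding sequence, held 67.6% of Syn2 TPM on average (53.8 to 82% over libraries). The excess of Syn2 is therefore smaller for coding RNA. Active zone genes were low, with Rims2 at 21.2, Rims1 at 9.86 and Unc13a, which encodes the priming factor Munc13-1, at 1.28 TPM. The spread over libraries was smallest for Napb, with a coefficient of variation of 6.69%, and largest for Syt7, at 63.6%. The Syt7 value rested on Q84 female 5: without that library it was 42.4%, and Syt6 had the largest, at 56.6%, with Napb still the smallest at 6.5%.

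SNAP-25 is made in a pair of forms that use alternative copies of exon 5, the later copy being typical of mature neurons. The copies are shown because they tell these transcripts apart; both are on the plus strand of chromosome 2 (GENCODE M21, GRCm38), each has 118 bases, and capitals mark the 31 positions at which they differ. The copy in Snap25-202 is chr2:136769743-136769860 and that in Snap25-201 is chr2:136770057-136770174.
Snap25-202 exon 5: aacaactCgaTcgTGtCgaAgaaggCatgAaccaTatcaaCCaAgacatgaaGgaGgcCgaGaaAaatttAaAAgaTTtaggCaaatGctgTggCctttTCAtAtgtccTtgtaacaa
Snap25-201 exon 5: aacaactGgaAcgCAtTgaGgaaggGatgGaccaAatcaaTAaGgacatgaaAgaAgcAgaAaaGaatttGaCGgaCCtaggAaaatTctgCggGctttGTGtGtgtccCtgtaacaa
Snap25-201 carried 97.9% of Snap25 TPM on average and Snap25-202 2.03%, with 13.6 TPM of Snap25-202 in Q84 female 5 as the lowest value and 48.7 TPM in Q84 female 1 as the highest. Snap25-202 also has a shorter last exon, so its share does not rest on exon 5 alone. Its log2 fold change, Q84 over WT, was 0.45 in the 10 libraries and did not pass the test (edgeR quasi-likelihood, Benjamini-Hochberg adjusted p = 0.363).

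In the 10 libraries whose Atxn3 transcript matched the label, 6 of the 30 members fell in Q84 (Sv2b, Syt5, Syt6, Syt7, Syt9 and Rims1), 0 rose and 24 did not pass. This test was edgeR's quasi-likelihood test with sex as a covariate, with Benjamini-Hochberg adjustment over all 18721 genes tested and a threshold of 0.05. Over all genes, 6.45% were called, 4.93% lower and 1.52% higher. Without adjustment, 10 members were under 0.05, all lower in Q84, against 20.2% of all genes in either direction. DESeq2 called 8 members and limma-voom 5, all lower. The median log2 fold change of the members was -0.15, against 0.01 over all genes tested. In bulk RNA, fewer cells of a type and less RNA per cell cannot be told apart. The number of calls rested on single libraries: 2 members were called without WT female 3 (Sv2b and Syt7), 2 without Q84 male 1 (Sv2b and Syt9) and 10 without WT male 1. Genes called over the whole table went from 1208 to 739, 681 and 1978 in the same order.

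With the 12 libraries as labelled, 0 of 30 members passed (edgeR), against 0.0053% of all 18875 genes called, and 5 were under 0.05 without adjustment, all lower, against 14.3% of all genes. DESeq2 called 2 members here, Sv2b and Syt5, and limma-voom 0. The median log2 fold change was -0.14, against 0.01 over all genes. Without Q84 female 5 alone, edgeR called 7 members, the 6 named above and Cplx2, and 1082 genes over the whole table, 838 of them lower. Without WT male 1 or without WT female 2, Sv2b alone was called among members, with 42 and 51 genes over the whole table.

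Of the 15 members used by neurons in general, 1 fell in the 10 libraries (Rims1) and 14 did not pass, with a median log2 fold change of -0.10. Of the 15 paralogs of some neurons, 5 fell and 10 did not pass, with a median of -0.31. The share of all genes called lower was 4.93%. In each of the 5 Q84 libraries with this Atxn3 transcript, the median log2 ratio to the mean of the 5 WT libraries was lower over the paralogs than over the general genes. It was -0.46 against -0.09 in Q84 male 1, -0.52 against -0.17 in Q84 female 1, and -0.46 against -0.06 in Q84 female 2. It was -0.57 against -0.14 in Q84 female 3 and -0.24 against -0.07 in Q84 female 4. In Q84 female 5, which lacks that transcript, the paralog median was lower as well, 0.03 against 0.41. Among WT libraries both medians were about equal within a library, and WT male 1 was low in both (-0.31 and -0.33), so its paralog median lay below that of Q84 female 4. By summed TPM the groups overlapped, as the paralogs held 25.4 to 26.9% of member TPM in the 5 WT libraries and 23.8 to 25.9% in the 5 Q84 libraries. These medians and shares describe a division made by hand, and no test of it was run.

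**Figure D2:**
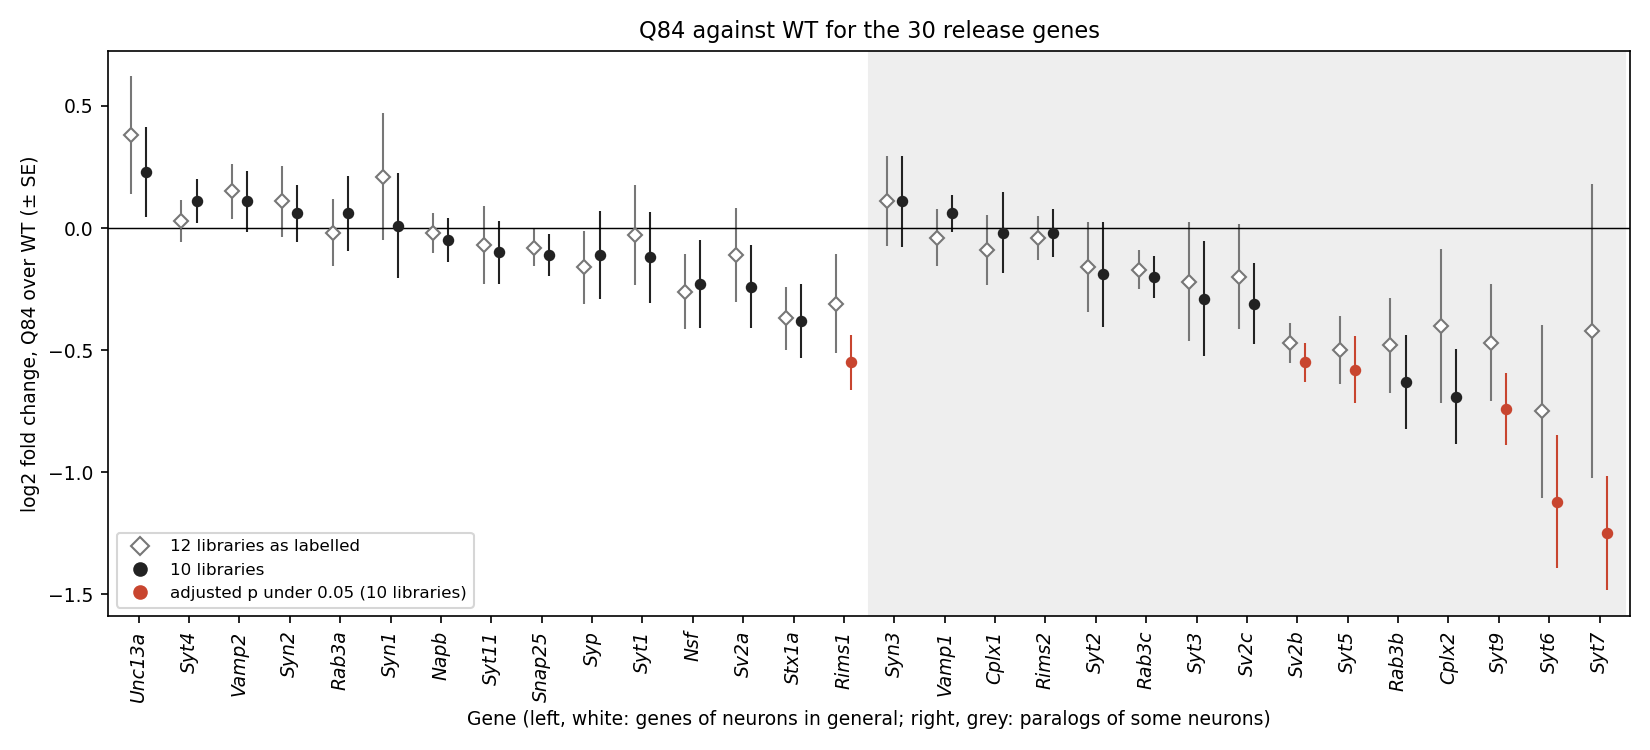
Points give the log2 fold change of each member, Q84 over WT, and bars its standard error, for the 12 libraries as labelled (open diamonds) and the 10 libraries (filled circles, red where the adjusted p was under 0.05), with genes of neurons in general on white and paralogs on grey. The 6 red points are all below 0, and the diamond of Syt7 lies at -0.42 with a wide bar where its circle lies at -1.25.

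Sv2b (ENSMUSG00000053025) was at 542, 532, 463, 463 and 451 CPM (a share of the library's counts, scaled with TMM) in WT male 1, 2 and 3 and WT female 1 and 3. It was at 324, 303, 356, 317 and 325 CPM in Q84 male 1 and Q84 female 1 to 4. The groups did not overlap, and every Q84 library lay well below every WT library. The mean went from 490 ± 43.1 to 325 ± 19.5 CPM (± SD over 5 libraries each), 31.7% lower by the fit, a log2 fold change of -0.55 (SE 0.0789, edgeR adjusted p = 0.00138). The call held in all 10 fits that left out 1 library. Both doubted libraries lay between the 5 WT and the 5 Q84 libraries at this gene, WT female 2 at 396 CPM and Q84 female 5 at 365 CPM. As WT female 2 was still the higher, Sv2b was the only member whose labelled groups did not overlap in the 12 libraries. Over all genes, 1.15% lay wholly lower in Q84. The 12-library log2 fold change was -0.47 (SE 0.0827, edgeR adjusted p = 0.062), with means of 475 ± 54.4 and 332 ± 23.9 CPM (SD, n = 6 each).

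The Sv2b transcripts did not fall equally. Sv2b-201 carried 57.4% of Sv2b TPM on average, Sv2b-202 40.0% and Sv2b-204 2.33%. Over transcripts, 3 of the 108 member transcripts tested passed in the 10 libraries, Sv2b-202, Sv2b-204 and Rims1-207, all lower, against 0.909% of 61522 transcripts called lower. With the 12 libraries as labelled 0 of 109 passed by edgeR, against 0% of 62686, with 16 under 0.05 without adjustment, against 9.27% of all transcripts; DESeq2 called 4 and limma-voom 0.

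Sv2b-204 was at 4.37, 3.96, 5.61, 4.79 and 6.28 TPM in the 5 WT libraries and at 1.79, 1.33, 0.659, 0.294 and 0.656 TPM in the 5 Q84 libraries, in the order used above. It was 3.49 TPM in WT female 2 and 0.343 TPM in Q84 female 5. Both doubted libraries thus sat with the libraries of their label, although their Atxn3 transcript did not. Its log2 fold change in the 10 libraries was -2.30 (SE 0.395, edgeR adjusted p = 0.0282), a call lost in 5 of the 10 fits without 1 library: those without WT male 3, WT female 1, WT female 3, Q84 female 2 or Q84 female 4. It was lost in females only too.

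Sv2b-202 was at 57.8, 64.1, 57.2, 55.8 and 50.8 TPM in WT and at 34.3, 28.6, 34.7, 27.3 and 31.9 TPM in Q84. The log2 fold change was -0.76 (SE 0.0863, edgeR adjusted p = 0.00319), and the call held without any 1 of the 10 libraries but not in females only (adjusted p = 0.0508). Sv2b-201 was at 64.3 to 80.5 TPM in the 5 WT and 46.3 to 56.9 TPM in the 5 Q84 libraries, which did not overlap either, but its log2 fold change of -0.33 did not pass (edgeR adjusted p = 0.175).

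To set the transcripts against each other within a library, the ratio of each less abundant transcript to Sv2b-201 was taken, a measure chosen after the values were seen. The Sv2b-204 to Sv2b-201 ratio in TPM was 0.0686 ± 0.0185 under the WT label and 0.0160 ± 0.0108 under the Q84 label (± SD over 6 libraries each), given as a description with no test. Every labelled WT library, WT female 2 included at 0.053, lay above every labelled Q84 library, of which Q84 female 5 was at 0.00678. In the 10 libraries the means were 0.0717 ± 0.0189 and 0.0178 ± 0.0110 (SD, n = 5 each). The Sv2b-202 to Sv2b-201 ratio behaved otherwise in the doubted libraries. It was 0.807 ± 0.0449 in 5 WT and 0.598 ± 0.0156 in 5 Q84 libraries (SD), but 0.656 in WT female 2 and 0.786 in Q84 female 5. Each of these lies nearer to the group opposite to its label. Reads common to the transcripts are divided by likelihood, so these ratios rest on the reads that touch the first exons and on transcript length.

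**Figure D3:**
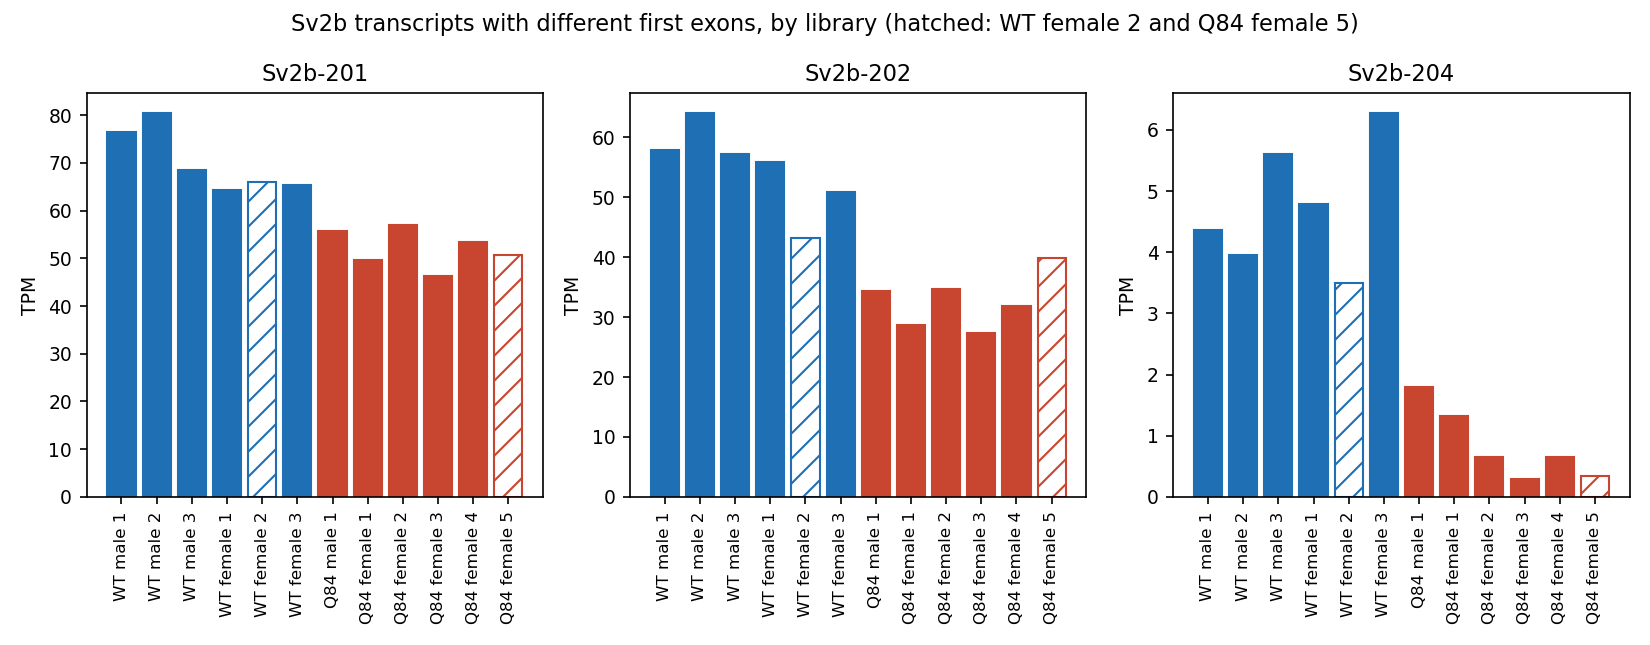
Bars give the TPM of each Sv2b transcript in each of the 12 libraries (blue: WT; red: Q84; hatched: WT female 2 and Q84 female 5 as labelled), on axes that start at 0 and differ between panels. Sv2b-204 is 3.49 to 6.28 TPM in all 6 libraries labelled WT and 0.294 to 1.79 TPM in all 6 labelled Q84.

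The other vesicle membrane proteins did not pass. Sv2c, a paralog best known from basal ganglia, was 282 ± 72.1 CPM over the 5 WT libraries and 215 ± 16.3 CPM over the 5 Q84 libraries (± SD), with a log2 fold change of -0.31 (edgeR adjusted p = 0.338). Its Q84 values of 196 to 234 CPM were enclosed by the WT range of 189 to 359 CPM. Sv2a had a log2 fold change of -0.24 (adjusted p = 0.481), and Syp, which encodes synaptophysin, of -0.11 (adjusted p = 0.814).

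All 7 synaptotagmins of the calcium sensor group had a negative log2 fold change in the 10 libraries, with a median of -0.58, and 4 of them passed. Syt7 (ENSMUSG00000024743) encodes a slow, high-affinity sensor that acts in asynchronous release and in exocytosis of dense-core vesicles and lysosomes. It was at 10.6, 8.55, 6.53, 8.76 and 8.80 CPM in the 5 WT libraries and at 2.62, 2.72, 5.21, 5.19 and 4.32 CPM in the 5 Q84 libraries. The groups did not overlap, and Q84 male 1 and Q84 female 1 were the lowest. The mean went from 8.64 ± 1.43 to 4.01 ± 1.28 CPM (± SD over 5 libraries each), and the fitted log2 fold change was -1.25 (SE 0.234, edgeR adjusted p = 0.00762), and the call was lost without Q84 male 1 (edgeR adjusted p from 0.00402 to 0.0559 over the fits that left out 1 library). In the 12 libraries the log2 fold change was -0.42 (adjusted p = 0.813), with 24.0 CPM in Q84 female 5, above every other library, and 7.45 CPM in WT female 2, inside the WT range.

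Syt9 (ENSMUSG00000062542), a fast sensor of some neurons and of endocrine cells, was at 57.6, 90.1, 104, 80.7 and 90.9 CPM in WT and at 56.2, 48.6, 47.1, 45.0 and 52.1 CPM in Q84. The groups did not overlap, but WT male 1 came within a few CPM of Q84 male 1. The mean went from 84.7 ± 17.3 to 49.8 ± 4.40 CPM (± SD over 5 libraries each), and the fitted log2 fold change was -0.74 (SE 0.147, edgeR adjusted p = 0.0113), and the call was lost without WT female 3 (edgeR adjusted p from 3.7e-05 to 0.0622 over the fits that left out 1 library). Q84 female 5 held 107 CPM, the highest of the 12 libraries, and WT female 2 held 70.9 CPM. In Q84 female 5, Syt9-205 and Syt9-202, annotated as retaining an intron, held 41.3% and 20.4% of Syt9 TPM. The lead coding transcript Syt9-201 was at 18.3 TPM there. It was at 13.6 to 33.5 TPM in the 5 WT and 7.81 to 17.8 TPM in the 5 Q84 libraries.

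Syt6 (ENSMUSG00000027849), a synaptotagmin known from sperm acrosomal exocytosis and from some neurons, was at 22.4, 52.4, 70.9, 39.1 and 47.2 CPM in WT and at 23.9, 23.2, 18.2, 17.5 and 17.9 CPM in Q84. The groups overlapped through WT male 1, the lowest WT library by far. The log2 fold change was -1.12 (SE 0.274, edgeR adjusted p = 0.0402), with means of 46.4 ± 17.8 and 20.1 ± 3.11 CPM (SD, n = 5 each). The call held in 2 of the 10 fits without 1 library, those without WT male 1 or WT male 3, and was lost in the other 8 (edgeR adjusted p from 7.97e-05 to 0.15), and it was lost with limma-voom and with no filter on low counts. Q84 female 5 was at 50.3 and WT female 2 at 32.4 CPM. Syt6-206, annotated as a target of nonsense-mediated decay, held 67.4% of Syt6 TPM on average, and coding Syt6-202 and Syt6-201 held 18.6% and 11.3%. Their log2 fold changes in the 10 libraries were -1.08, -0.81 and -1.65, and none passed (edgeR adjusted p = 0.168, 0.439 and 0.101).

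Syt5 (ENSMUSG00000004961), a calcium-binding synaptotagmin of dense-core vesicles, was at 22.9, 34.3, 37.7, 29.9 and 33.9 CPM in WT and at 21.2, 23.7, 20.7, 19.1 and 22.0 CPM in Q84. Again WT male 1 fell among the Q84 values while the other 4 WT libraries were above all of them. The mean went from 31.7 ± 5.67 to 21.3 ± 1.71 CPM (± SD over 5 libraries each), and the fitted log2 fold change was -0.58 (SE 0.138, edgeR adjusted p = 0.0281). The call was lost in 6 of the 10 fits without 1 library (WT male 2, WT female 1, WT female 3, Q84 male 1, Q84 female 2 or Q84 female 3). The 12-library log2 fold change was close to it, -0.50 (SE 0.140, adjusted p = 0.140), with Q84 female 5 at 30 and WT female 2 at 32.3 CPM.

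The remaining sensors had smaller differences. Syt1, the fast sensor of most synapses, was 223 ± 61.8 CPM over the 5 WT libraries and 192 ± 22.5 CPM over the 5 Q84 libraries (± SD), with a log2 fold change of -0.12 (edgeR adjusted p = 0.800). Syt2, the fast sensor of many sensory and motor synapses, was at -0.19 (adjusted p = 0.701) and Syt3 at -0.29 (adjusted p = 0.570). Of the synaptotagmins that bind calcium poorly, Syt4 was at 0.11 (adjusted p = 0.580) and Syt11 at -0.10 (adjusted p = 0.732).

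**Figure D4:**
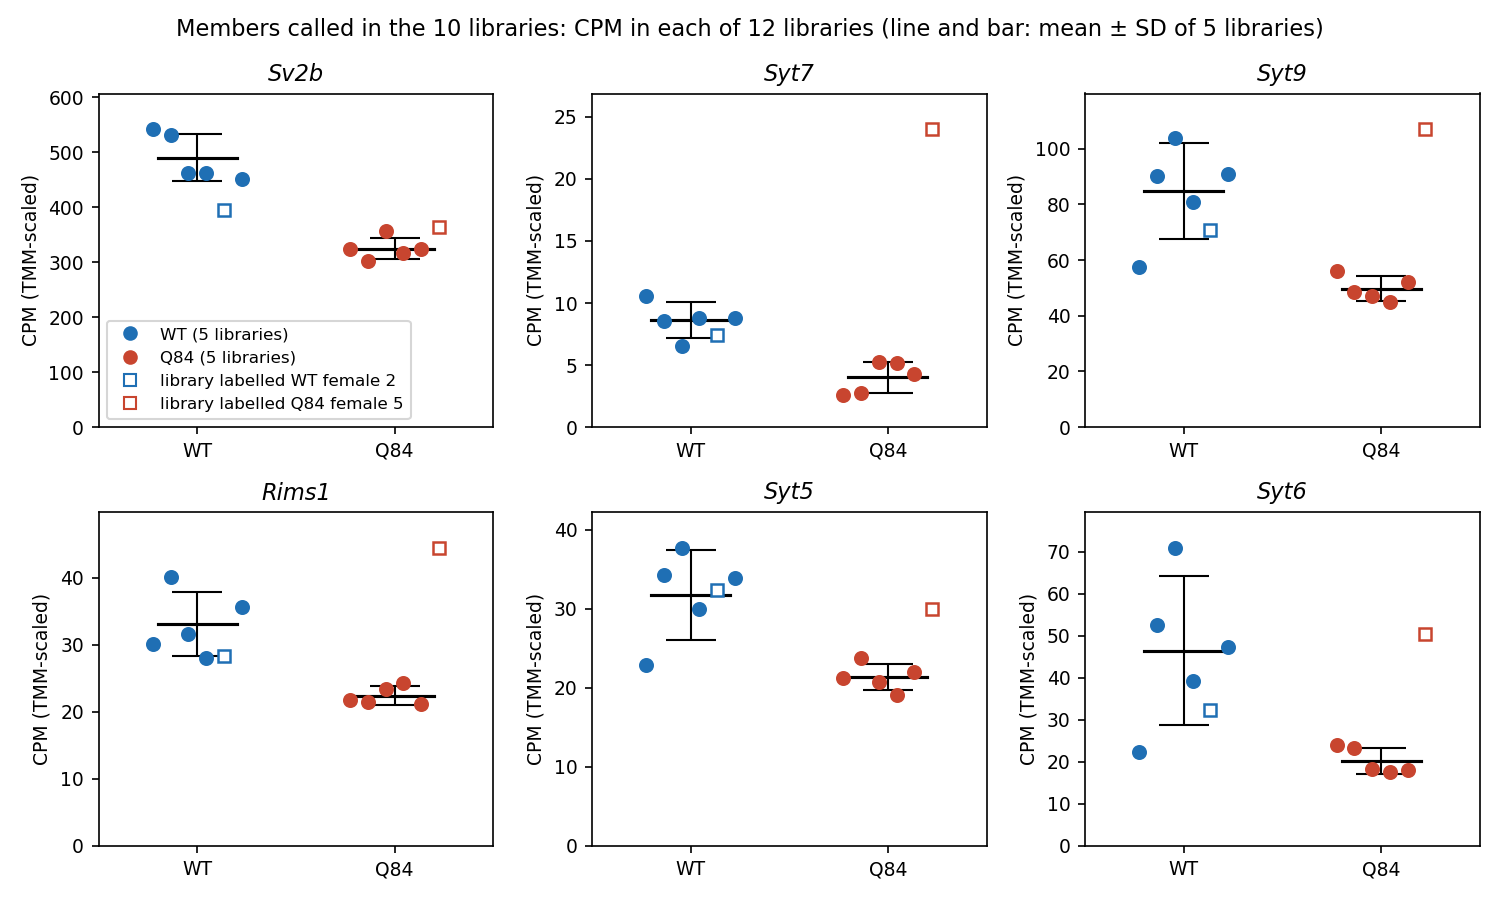
The y axis gives TMM-scaled CPM from 0 for the 6 members called in the 10 libraries, with 1 point per library, horizontal lines at the mean of 5 libraries and bars of 1 SD (open squares: WT female 2 and Q84 female 5 as labelled, not in the means). The open square of Q84 female 5 stands above the other 5 Q84 libraries in all 6 panels and is 24.0 CPM for Syt7, while for Sv2b it is 365 CPM, below every WT library.

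Among active zone genes 1 of 3 fell. Rims1 (ENSMUSG00000041670) encodes RIM1, a scaffold that binds Rab3, Munc13 and calcium channels. It was at 30.1, 40.1, 31.6, 28.0 and 35.6 CPM in WT and at 21.8, 21.4, 23.4, 24.3 and 21.1 CPM in Q84. The groups did not overlap. The mean went from 33.1 ± 4.8 to 22.4 ± 1.4 CPM (± SD over 5 libraries each), and the fitted log2 fold change was -0.55 (SE 0.114, edgeR adjusted p = 0.0138), a call lost without WT female 3 or without Q84 male 1 (adjusted p from 0.00564 to 0.0978), and in females only (adjusted p = 0.0529). Q84 female 5 was again above all other libraries, at 44.5 CPM, and WT female 2 was at 28.4 CPM. Its paralog Rims2 was 50.3 ± 5.61 and 47.0 ± 5.16 CPM (SD, n = 5 each; log2 fold change -0.02, adjusted p = 0.955). Unc13a was 6.16 ± 0.800 and 7.66 ± 1.85 CPM (SD, n = 5 each; log2 fold change 0.23, adjusted p = 0.553).

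Among Rims1 transcripts, a short form alone was called in the 10 libraries, and its part in the fall of the gene was not tested. Rims1-207, of 2294 bases and 6 exons, begins in its own first exon within the gene, shares 4 exons exactly with the longer Rims1-201, and held 54.1% of Rims1 TPM on average. Rims1-207 has 657 coding bases and Rims1-201 has 3780 in GENCODE M21, where Rims1-201 is shorter (5954 bases) than in the tables (6605 bases). It was at 5.96, 9.69, 7.40, 5.23 and 8.99 TPM in the 5 WT and 3.07, 3.38, 3.87, 3.34 and 2.62 TPM in the 5 Q84 libraries. These did not overlap, and the log2 fold change was -1.14 (SE 0.215, edgeR adjusted p = 0.0407). The call was lost in 8 of the 10 fits without 1 library; it held without WT male 1 or WT female 1, and was lost with limma-voom and in females only. Rims1-201 was at 2.16 to 3.86 and 1.55 to 2.42 TPM in the same groups (log2 fold change -0.38, adjusted p = 0.608). Short forms lead the RNA of Rims2 as well, where Rims2-204, of 6 exons and 855 coding bases, held 56.1% on average. The next transcripts by p were Syt7-202 (log2 fold change -1.25, adjusted p = 0.0535) and Rims2-211 (0.90, adjusted p = 0.080), neither of which passed.

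The 3 Rab3 genes, GTPases that tether vesicles, had 0 calls (edgeR), with 2 under 0.05 without adjustment. Rab3b was at 10.1, 14.5, 17.1, 10.8 and 10 CPM in WT and at 7.17, 9.93, 7.40, 7 and 6.14 CPM in Q84. The groups did not overlap, by a margin of less than 1 CPM between WT female 3 and Q84 female 1. The log2 fold change was -0.63 (SE 0.193, edgeR adjusted p = 0.0833). Rab3c was at -0.20 (adjusted p = 0.198) and Rab3a, the main form of most neurons, at 0.06 (adjusted p = 0.877). With Sv2b, Syt7, Syt9 and Rims1, Rab3b made 5 members without overlap, all lower in Q84 and 0 higher, against 5.96% of all genes wholly lower and 2.71% wholly higher.

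Both complexins were lower without passing. Cplx2 was at 11.3, 18.5, 15.2, 14.2 and 14.4 CPM in WT and at 9.06, 6.68, 9.43, 7.40 and 12.4 CPM in Q84, where Q84 female 4 alone reached into the WT range. The log2 fold change was -0.69 (SE 0.194, edgeR adjusted p = 0.0575). Q84 female 5 had 24.6 CPM, the highest of the 12 libraries. Cplx1, the abundant form, was at -0.02 (adjusted p = 0.963).

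SNAREs, synapsins and the genes of SNARE disassembly had 0 calls of 9 (edgeR), and 1 of them, Stx1a, was under 0.05 without adjustment. Stx1a, which encodes syntaxin-1A, was 23.3 ± 3.96 CPM over the 5 WT libraries and 18.3 ± 2.66 CPM over the 5 Q84 libraries (± SD), with a fitted difference of -0.38 (log2, SE 0.151, edgeR adjusted p = 0.179), and the groups overlapped through WT male 1 at 16.6 CPM. Snap25 was 2032 ± 206 and 1835 ± 73.3 CPM (SD, n = 5 each; log2 fold change -0.11, adjusted p = 0.528). Vamp1 was at 0.06 (adjusted p = 0.704) and Vamp2 at 0.11 (adjusted p = 0.689). The synapsins Syn1, Syn2 and Syn3, which tether vesicles in the reserve pool, were at 0.01, 0.06 and 0.11 on the log2 scale. Nsf was at -0.23 (adjusted p = 0.553) and Napb at -0.05 (adjusted p = 0.820). The standard errors of these genes, 0.0745 for Vamp1 to 0.216 for Syn1, show what size of difference the 10 libraries could resolve.

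Ratios of paralogs within a library remove what changes both genes alike, but not a shift between types of neuron that use them unequally. The ratios of 10 pairs were taken in TPM as a description. In the 10 libraries 2 pairs did not overlap. The Rab3b to Rab3a ratio was 0.0472 to 0.053 in WT and 0.0223 to 0.0362 in Q84, with WT female 2 at 0.0373 and Q84 female 5 at 0.0536. The Rims2 to Rims1 ratio was 1.44 to 2.19 in WT and 2.43 to 3.36 in Q84, with WT female 2 at 2.37 and Q84 female 5 at 1.42. In both pairs the doubted libraries lay outside the range of their label, and Q84 female 5 fell beyond the edge of the WT range. The other 8 pairs overlapped, among them Sv2b to Sv2a (9.01 to 18.9 in WT, 9.61 to 13.2 in Q84) and Cplx2 to Cplx1 (0.0137 to 0.0204 in WT, 0.00841 to 0.0151 in Q84).

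Across all 30 members, the highest and lowest values were spread unevenly over the libraries. Q84 female 5 was the highest of the 12 libraries in 12 members (Syt1, Syt7, Syt9, Syt11, Syn1, Syn2, Syn3, Vamp2, Sv2c, Cplx2, Unc13a and Rims1) and the lowest in Vamp1. Its median log2 ratio to the WT mean was 0.41 over the genes of neurons in general and 0.03 over the paralogs. The summed TPM of Q84 female 5 was nevertheless below that of every WT library in both groups. It was 2861 against 2888 to 3593 TPM for the general genes and 832 against 985 to 1309 TPM for the paralogs. WT male 3 was the highest in 10 members, Q84 female 1 was the lowest in 8, and WT male 1 and Q84 female 3 were the lowest in 7 each. Mitochondrial genes took 8.84 to 10.9% of counts in the 5 Q84 libraries and 6.8 to 8.24% in the WT libraries other than WT male 1 and WT female 2, which had 9.47% and 7.47%. The share was thus mostly higher in the libraries where the called members were lower, but it was highest, 11.82%, in Q84 female 5. The part of this in the members' levels was not tested.

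**Figure D5:**
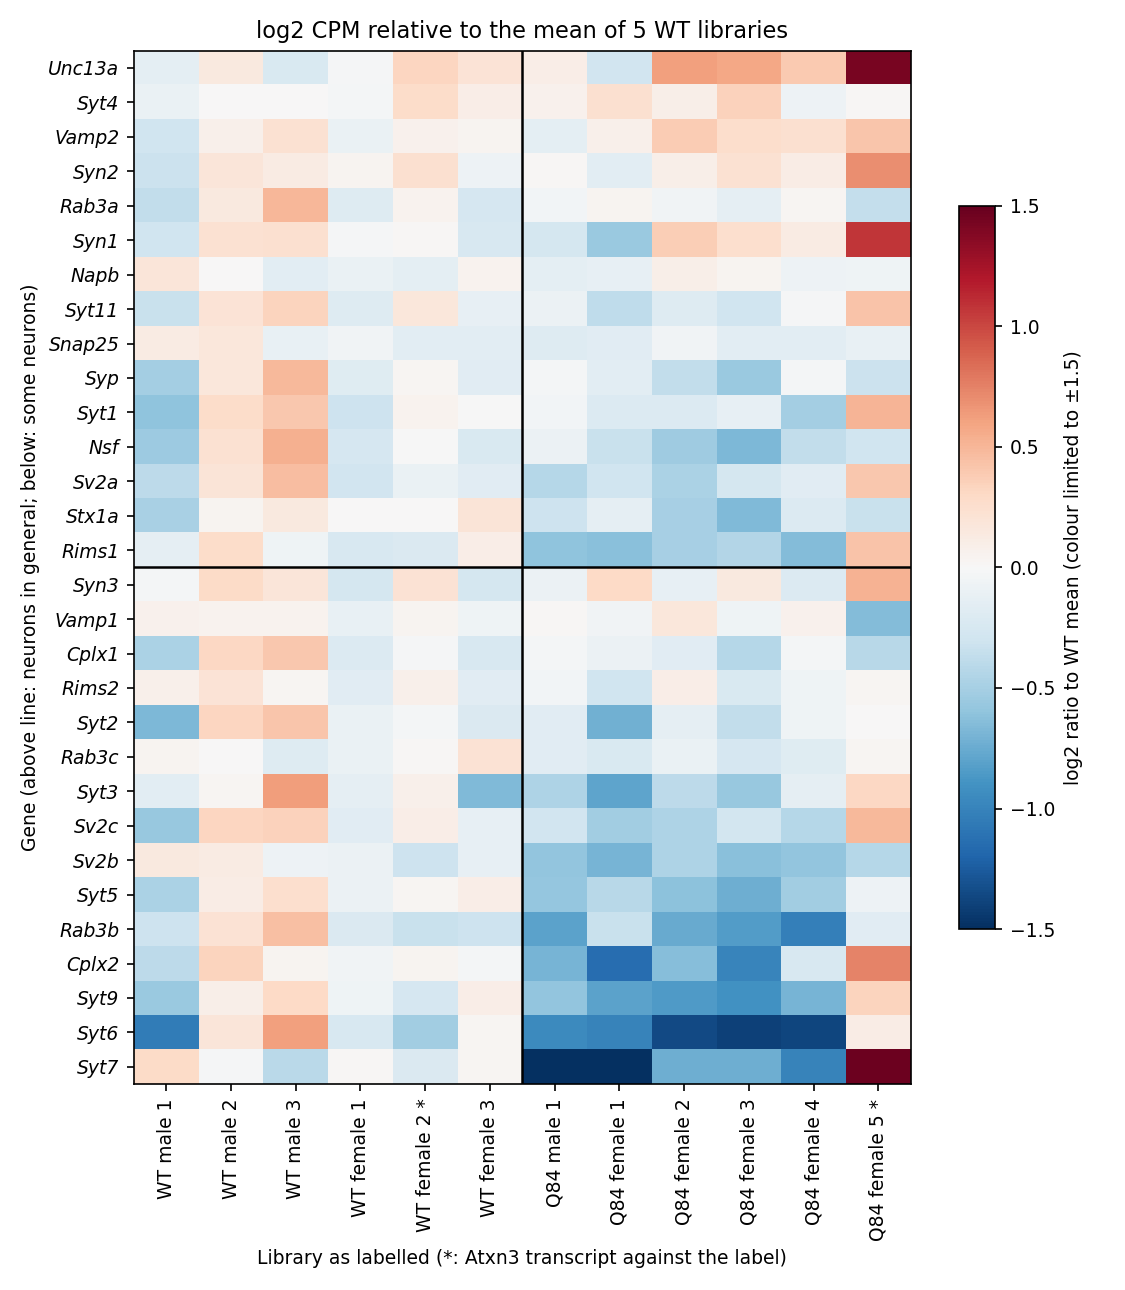
Colour gives the log2 ratio of CPM to the mean of the 5 WT libraries for each member (rows; genes of neurons in general above the line, paralogs below) in each library (columns; asterisks mark WT female 2 and Q84 female 5), limited to 1.5 in either direction. The paralogs Syt6 and Syt7 are blue in Q84 male 1 and Q84 female 1 to 4, while the column of Q84 female 5 is red for 12 members that are highest there.

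Some markers of neuron types were lower in Q84 along with the called members. In the 10 libraries 9 of 12 nonpeptidergic nociceptor markers fell, with a median log2 fold change of -1.16. On the other lists 4 of 8 peptidergic, 5 of 13 large myelinated and 2 of 5 low-threshold C-fibre markers fell. Over all genes, 4.93% were called lower. The nonpeptidergic markers summed to 974 to 1557 TPM in the 5 WT and 492 to 660 TPM in the 5 Q84 libraries. The peptidergic markers summed to 4757 to 5853 and 2557 to 3395 TPM. The sums of the other lists overlapped between the groups. They were 1193 to 1791 and 1001 to 1457 TPM for the large myelinated markers. For the C-fibre markers they were 95.3 to 255 and 81.6 to 102 TPM. Q84 female 5 was with WT for the nonpeptidergic sum at 1366 TPM, as it was for Syt6, and between the groups for the peptidergic sum at 4248 TPM. Of the 15 markers of neurons in general 1 fell, the transcription factor gene Pou4f1, and the median was -0.15, equal to that of the 30 members. Their sum was 8002 to 11341 TPM in the 5 WT and 7773 to 9270 TPM in the 5 Q84 libraries, which overlapped. None of the markers on these 5 lists was at 0 in all libraries, and Runx3 was under 1 TPM throughout. Their part in the lower levels of the called members was not tested.

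Among markers of other tissues, all 5 haemoglobin and erythroid genes had positive log2 fold changes (median 1.34, 0 calls by edgeR, 5 under 0.05 without adjustment). They summed to 596 to 3438 TPM in the 5 WT and 1593 to 6780 TPM in the 5 Q84 libraries, with WT male 1 the highest WT library and Q84 male 1 the highest Q84 library. Within WT, WT male 1 had the lowest Syt5, Syt6 and Syt9 values but the highest Sv2b and Syt7 values, and Rims1 was inside the WT range. Muscle and adipocyte markers had median log2 fold changes of 2.46 and 1.69 with 0 calls by edgeR (0 and 2 under 0.05 without adjustment) and varied widely, with the highest sums, 801 and 144 TPM, in Q84 male 1.

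The vascular markers summed to 163 to 223 TPM in the 5 WT and 79.4 to 133 TPM in the 5 Q84 libraries. These did not overlap, and Q84 female 5, at 194 TPM, was with WT while WT female 2, at 151 TPM, lay between the groups. The pericyte gene Rgs5 was the 1 of 5 vascular markers that passed, from 381 ± 74.4 to 147 ± 7.72 CPM (± SD over 5 libraries each, edgeR adjusted p = 7.99e-05). Of the 5 markers, 3 had a positive and 2 a negative log2 fold change (median 0.16). The lower sums therefore do not describe the vascular list as a whole. On the fibroblast list 1 of 5 rose (Pdgfra, log2 fold change 0.61), and on the satellite glia list 1 of 7 rose (Cadm2, 0.75). On the Schwann cell list 1 of 9 fell (Scn7a, -0.56). On the macrophage list 0 of 6 passed by edgeR, with 1 under 0.05 without adjustment. The medians of these lists were 0.51, -0.11, 0.20 and 0.21 in this order. Cadm2 and Scn7a went against most of their lists, where 5 of 7 genes were negative and 6 of 9 positive. Over all genes, 4.93% were called lower and 1.52% higher. The genes of these lists are named because they passed, which was known when they were named. The part of other tissues in the differences of the members was not tested.

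Other genes of release were taken from lists of related proteins. Of 67 tested further release genes, 7 fell, 1 rose and 59 did not pass in the 10 libraries, with a median log2 fold change of -0.05. Cadps2, which encodes a priming factor for dense-core vesicles, fell from 58.6 ± 5.63 to 27.9 ± 1.18 CPM (± SD over 5 libraries each), and the fitted log2 fold change was -1.12 (SE 0.0773, edgeR adjusted p = 7.39e-06). Synpr, which encodes synaptoporin, a relative of synaptophysin, fell from 804 ± 69.5 to 391 ± 49.1 CPM (SD, n = 5 each; log2 fold change -1.10, SE 0.0968, adjusted p = 4.92e-05). For both genes Q84 female 5 was above the WT mean, at 74.3 CPM for Cadps2 and 815 CPM for Synpr, and WT female 2 lay between the group means, at 40.6 and 541 CPM. The other falls were Rab27b, a Rab of secretory granules (-0.50, adjusted p = 0.00728), the low-level synaptotagmins Syt13 (-1.18, adjusted p = 0.00912) and Syt17 (-1.25, adjusted p = 0.00445), the syntaxin gene Stx4a (-0.29, adjusted p = 0.0426) and the gamma-synuclein gene Sncg (-0.32, adjusted p = 0.0498). Snap47, a SNAP-25 relative, rose (0.35, adjusted p = 0.0358). Of 23 genes of vesicle recycling 0 passed by edgeR, with 4 under 0.05 without adjustment, and the smallest p-values were those of the clathrin light chain gene Clta (-0.23, adjusted p = 0.0616) and the endophilin gene Sh3gl3 (0.33, adjusted p = 0.100).

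Between the sexes, 0 of 30 members passed in the 12 libraries (male over female, edgeR with genotype as covariate), against 0.0636% of all genes, and 0 were under 0.05 without adjustment, against 3.82%. DESeq2 and limma-voom called 0 as well. The median log2 fold change, male over female, was 0.08, and the member with the largest was Syt7 at -0.46. Sex could be compared mainly among WT libraries, since 1 Q84 library was male.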

How the data were processed

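Poly(A) RNA of dorsal root ganglia was measured in 12 libraries, grouped by the genotype and sex in their titles. The deposited tables hold estimated counts and TPM for 116313 transcripts, as the authors' quantification gave them per the file headers. Kallisto 0.46.2, STAR 2.7.10b and GRCm39 are named per the submitters' processing notes, without roles. Transcripts were named by identifier in GENCODE M21 (GRCm38): 98.3% matched, and the unmatched held 0.751 to 0.804% of counts and were left out. No coordinates of the files' own build were used.

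Estimated counts were summed per gene, rounded, filtered with filterByExpr on the 4 groups, scaled with TMM and tested with edgeR 4.0.16 (quasi-likelihood, robust; covariate sex; Benjamini-Hochberg, threshold 0.05), and likewise per transcript. Standard errors were derived from the F statistic. All 30 members passed the filter. The tests were tried on simulated counts. Alternatives were DESeq2 1.42.0, limma-voom (limma 3.58.1), other scaling, no filter, length-scaled TPM, no sex term, females only, a replicate block and leaving out single libraries. Per-library values were given for members that passed and for Rab3b and Cplx2, and other members by their mean, range or fit. This choice, the members and the lists were set with earlier results of these data known. Kallisto divides reads shared by similar transcripts, so values of paralogous stretches are uncertain.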

Additional observations from a re-analysis of the deposited data

Results flagged for a closer look

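In the 5 libraries labelled Q84 female, each member was checked for a library far from the others (Dixon's test, critical value 0.71), and 6 of 30 members had one. Chance gives about 1 in 20 for a single gene, but the 30 checks used the same 5 libraries and were not independent. All 6 were high values of Q84 female 5, the library that lacks the Atxn3 transcript of its label. Syt7 was at 24.0 CPM there against 2.72 to 5.21 CPM in the other 4 libraries, Syt9 at 107 against 45.0 to 52.1 CPM, and Rims1 at 44.5 against 21.1 to 24.3 CPM. The Syt9 value sums all transcripts, and the lead coding transcript Syt9-201 held 36.4% of Syt9 TPM in Q84 female 5. Syt6 was at 50.3 against 17.5 to 23.2 CPM, Sv2c at 395 against 196 to 234 CPM, and Sv2a at 39.6 against 21.4 to 26.6 CPM. Of these, Syt7, Syt9, Rims1 and Syt6 are among the 6 members called in the 10 libraries, while Sv2b and Syt5, also called, had no such value. A high value in Q84 female 5 works against a call while that library is included, so this overlap is not a separate result.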

How the results depend on the processing

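In the 10 libraries the 6 calls became 8 with DESeq2 or without the sex term and 5 with limma-voom, no filter or females only, and 2 to 10 when 1 library was left out. In the 12 libraries the 0 calls became 2 with DESeq2 and 1 without the sex term, and 0 to 7 when 1 library was left out. Calls of member transcripts in the 10 libraries went from 3 to 13 with DESeq2, 6 without the sex term, 1 in females only and 1 to 8 when 1 library was left out; in the 12 libraries they went from 0 to 4 with DESeq2 and 0 to 3 when 1 was left out. For sex the count was 0 in every fit. Syt7-202 turned from -0.38 to 0.05 (log2) in the 12 libraries in females only, and ran from -1.16 without Q84 female 5 to 0.05 without Q84 male 1 when 1 library was left out. The causes were not tested. Over all genes, DESeq2 called 1934 in the 10 libraries and 620 in the 12.

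Same-numbered libraries did not all deviate together (correlations of -0.189 to 0.295), so the numbers were not taken as pairs. With the replicate block, 4 members were called in the 10 libraries (Cplx2, Rims1, Sv2b, Syt7) and 4 in the 12 (Cplx2, Sv2b, Syt7, Syt9), so Syt5, Syt6 and Syt9 were not called in the 10 (adjusted p = 0.0585 for Syt9 and 0.119 for Syt5, edgeR). The block called 1 transcript in the 10, Sv2b-202, without Sv2b-204 and Rims1-207, and 0 in the 12. Over all genes the block called 701 and 639. Depth was 66490481 counts or more per library, and the lowest value of a member was 1.6 CPM (Syn3 in WT female 3).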
